A study of Rattus norvegicus with 6 samples.

Results

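Long unannotated gene models are stretches of transcribed sequence that the deposited tables type as new genes, outside the annotation that names the known genes. Rows of that type were kept where the deposited level averaged at least 5 CPM, the count of a gene scaled to a common library total, over the 6 samples and the listed gene length was above 600 bases. The rule left 273 models of 24360 gene rows. In all, 8949 rows were typed as new genes, of which 1594 were above 600 bases and 1072 reached 5 CPM at any length. The models were thus chosen by their measured level and their listed length, so both are given as description and neither is tested.

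The samples were H9c2 cells, a myoblast line from embryonic rat heart that is used as a stand-in for heart muscle cells. All were labelled wild type, with 3 controls (Ctrl) labelled NC and 3 samples given ginsenoside Rb2 (Rb2), a saponin from ginseng. The protocol text, shared by every sample, gives Rb2 for 48 h, a deprivation lasting 4 to 6 h in which oxygen and glucose were withheld, and a recovery of 12 h, and it does not say whether the controls were deprived. The labels do not say that the replicates came from separate cultures. The p-values therefore reflect variation among these 6 samples alone, and that variation may be technical.

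A transcript assembler reports a gene model wherever reads stack up outside the annotation it was given. Such models can be protein-coding genes that the annotation lacks, detached ends or introns of known genes, expressed copies of other genes, or RNAs that code for no protein. Their identifiers carry no name and no function, and the type alone does not tell these kinds apart. In the deposited tables the symbol of all 273 models was the identifier itself, so none has a stated function here. All 502 of their transcripts were typed as new mRNA.

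Total counts were 8793390 in Ctrl replicate 1 and 5193077 to 5881914 in the other libraries. Ctrl replicate 1 also lay at the end of the first principal component, which carried 42.3% of the variance of log2 CPM. Against the label of embryonic cardiomyocyte, 9 of 10 cardiac muscle markers were listed and 3 were tested, and Tnni3, Myh7, Actc1, Myl2 and Myl7 had at most 3 counts over the 6 libraries. The cardiac list summed to 56.1 to 74.5 CPM in Ctrl and 54.5 to 63.8 in Rb2, the fibroblast and mesenchyme list to 4860 to 5170 and 5217 to 5653, and the smooth muscle list to 1908 to 2169 and 1659 to 1687. The skeletal myoblast and muscle list, with 7 of 8 markers listed and 4 tested, summed to 35.7 to 46.6 in Ctrl and 41.6 to 46.9 in Rb2. In each of these lists 0 markers were called, against 2.7% of all genes. In bulk RNA, fewer cells of a kind and less RNA per cell cannot be told apart.

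The 273 models ran from 610 to 5751 bases, with a median of 1240. Their mean deposited CPM ran from 5.03 to 5195, with a median of 10.2. Just inside the level threshold were ONT.41 and ONT.6350, both at 5.03 CPM, and just outside were ONT.9041 at 4.94 and ONT.213 at 4.91. Just inside the length threshold were ONT.2815 (610 bases) and ONT.3643 (612 bases), and just outside were ONT.16189 and ONT.906, both 596 bases.

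The listed gene length was not always the length of what was counted. It equalled the longest transcript in 180 models and differed from it in 93, and 11 models had no transcript above 600 bases. In 23 models (8.42%) the transcript with the largest share of counts was at most 600 bases. Those 23 held 46.4% of the summed CPM of the 273, because they included 4 of the 8 most abundant. The name "long" therefore describes the gene row, and for these 23 it does not describe the leading transcript. The share of counts in that transcript differed between them, down to 37.3% in ONT.7865.

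The 273 models took 3.93%, 3.72% and 3.58% of all counts in the Ctrl samples, in replicate order, and 3.68%, 3.68% and 3.66% in Rb2. The Ctrl mean of 3.74% ± 0.18 and the Rb2 mean of 3.67% ± 0.0099 (SD, n = 3 each) differed by less than the Ctrl spread, and the ranges overlapped. The 5 most abundant models alone held 2.33% ± 0.092 in Ctrl and 2.27% ± 0.0051 in Rb2. The other 268 held 1.41% ± 0.098 and 1.40% ± 0.011.

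None of the 8 most abundant models was called by the main edgeR fit or by DESeq2, 3 had an unadjusted edgeR p under 0.05, and their groups overlapped in all but ONT.17410 and ONT.1691. Over all genes edgeR called 2.7%, 20.0% had an unadjusted p under 0.05 and 27.2% had groups that did not overlap. CPM values per sample, here and below, are scaled by TMM factors, which adjust each library's total for composition. ONT.9388, the highest by deposited CPM (5195), was at 5517, 5664 and 4799 in Ctrl and 5326, 5011 and 5078 in Rb2. Its groups overlapped, and 99.9% of its counts in both groups were assigned to 1 transcript of 436 bases within a gene row of 1862 bases. ONT.17410 (725 bases) was at 5170, 5339 and 5835 in Ctrl and 4486, 5142 and 5056 in Rb2. Its Ctrl samples were all above its Rb2 samples, but the log2 fold change of Rb2 over Ctrl was -0.15 (SE 0.083, adjusted p = 0.326 by edgeR's quasi-likelihood test with Benjamini-Hochberg adjustment over all genes).

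ONT.3156 (933 bases) was at 4664, 5165 and 4213 in Ctrl and 4535, 4422 and 4500 in Rb2, and the groups overlapped. Its leading transcript of 353 bases held 80.7% ± 0.056 of its counts in Ctrl and 79.7% ± 0.18 in Rb2. ONT.4555 (1215 bases) was at 5223, 4960 and 4346 in Ctrl and 4370, 4202 and 4141 in Rb2, with a leading transcript of 505 bases that held 67.0% ± 0.96 and 65.0% ± 2.06 of its counts. Its groups overlapped at Ctrl replicate 3, and neither model passed the test on all samples (log2 fold changes -0.06 and -0.19). Without Ctrl replicate 3, ONT.4555 passed (-0.25, adjusted p = 0.0425 by edgeR).

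ONT.16278 (1336 bases) was at 5081, 3984 and 3333 in Ctrl and 3513, 3162 and 2875 in Rb2. Ctrl replicate 1 was the highest library and the groups overlapped (log2 fold change -0.38, SE 0.15, adjusted p = 0.202 by edgeR). ONT.1691 (873 bases, 1 transcript) was at 1129, 1233 and 1143 in Ctrl and 950.4, 915.9 and 950.2 in Rb2. Its groups were apart, with a log2 fold change of -0.32 (SE 0.075) and an adjusted p of 0.0597 by edgeR, just above the 0.05 used for a call. It passed without Ctrl replicate 1 (adjusted p = 0.0049) or without Ctrl replicate 3 (adjusted p = 0.0378), and the highest value in any alternative was 0.282. ONT.2619 (2158 bases) and ONT.2815 (610 bases) had overlapping groups and log2 fold changes of -0.06 and 0.10. By edgeR, ONT.2619 passed without Ctrl replicate 1 (-0.20, adjusted p = 0.0338). ONT.2815 passed when each library was corrected for gene length (0.31, adjusted p = 0.0418).

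Per kilobase of listed gene length the order of the abundant models changed. ONT.17410 was first at 7133 TMM-scaled CPM per kilobase, followed by ONT.3156 at 4912, ONT.4555 at 3737, ONT.9388 at 2810 and ONT.16278 at 2738. The neighbours ONT.9388 and ONT.16278 in that order had overlapping samples. For the models whose leading transcript is far shorter than the gene row, this scale divides by a length that the leading transcript did not have.

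Rb2 was then compared with Ctrl on the counts of every gene row, and the rows of the long models were read from that fit. All 273 passed the filter on low counts, and 11 (4.03%) were called at an adjusted p under 0.05, against a background of 2.7% of 11551 genes tested. Of these, 7 (2.56%) were higher in Rb2, against 1.9% of genes, and 4 (1.47%) were lower, against 0.805%. The groups did not overlap in 92 models (33.7%), against 27.2% of genes, and 73 (26.7%) had an unadjusted p under 0.05, against 20.0%. These shares lie near those of all genes, and no statement particular to the long models is drawn from them.

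The 11 calls depended on which libraries were in the fit. Leaving out Rb2 replicate 2 or Rb2 replicate 3 left 0 calls among the 273. Leaving out Ctrl replicate 2 kept 1 of the 11, the only call, and leaving out Rb2 replicate 1 kept 1 of the 11 beside 1 other call. Without Ctrl replicate 1 there were 33 calls, with all 11 kept, and without Ctrl replicate 3 there were 20, with 10 of the 11 kept and 10 lower in place of 4. All genes moved the same way, from 219 higher and 93 lower. These became 605 and 291 without Ctrl replicate 1, and 433 and 211 without Ctrl replicate 3. Without Ctrl replicate 2 they were 2 and 13, and without Rb2 replicates 1, 2 or 3 they were 25 and 14, 0 and 3, and 1 and 10. The dependence is thus not particular to the long models.

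The model with the largest difference was ONT.1161, of 1858 bases. It was at 999.7, 573.0 and 492.2 CPM in Ctrl and 93.3, 86.8 and 87.6 in Rb2. All Ctrl samples were far above all Rb2 samples, and the Ctrl samples themselves spread over a wide range with replicate 1 at the top. The mean was 688 ± 273 CPM in Ctrl and 89.2 ± 3.52 in Rb2 (SD, n = 3), 7.72-fold lower in Rb2, with a log2 fold change of -2.95 (SE 0.27, adjusted p = 0.0098 by edgeR). Among the 65 genes of at least 5 CPM called lower, known genes included, it ranked 1 by the size of the fall. Its deposited counts were 8239, 3170 and 2817 in Ctrl and 524, 501 and 476 in Rb2, so counting error is small beside the spread between samples. Removing Rb2 replicate 2 raised the adjusted p to 0.0746 and removing Rb2 replicate 3 raised it to 0.0594, so the call was lost in both, at log2 fold changes of -2.93. Without Ctrl replicate 1 the call was kept at -2.56.

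Nearly all counts of ONT.1161 came from 1 transcript as long as the gene row, which held 100% of its counts in every Rb2 library and at least 99.96% in every Ctrl library. As a transcript it had a log2 fold change of -2.96, with an adjusted p of 0.0589 by edgeR over all transcripts.

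**Figure D1:**
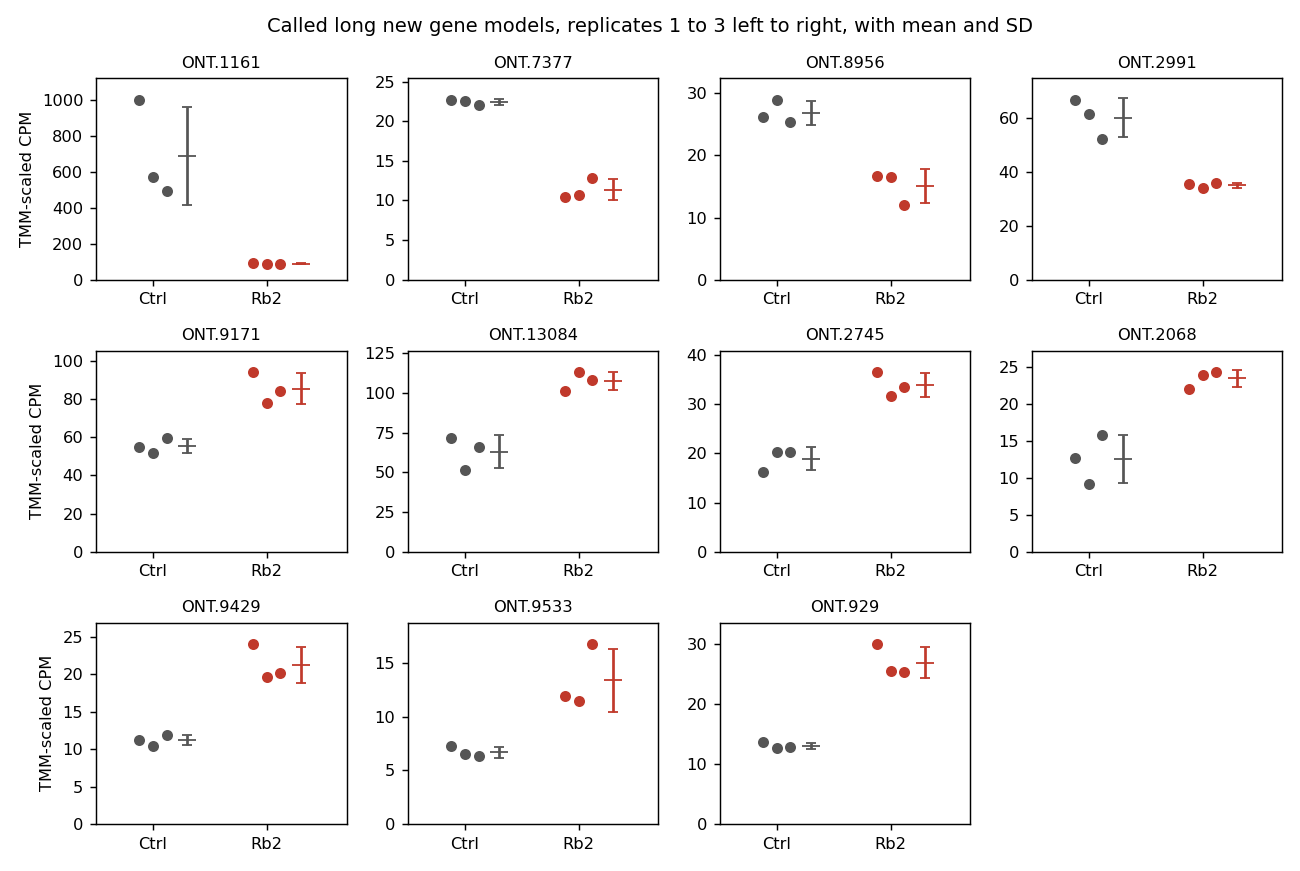
TMM-scaled CPM (linear axis from 0, on its own scale in each panel) of the 11 called models, with 1 point per sample in replicate order and the mean with its SD (n = 3) beside each group. In ONT.1161 the Ctrl samples lie at 492.2 to 999.7 CPM and the Rb2 samples at 86.8 to 93.3, and in all 11 panels the groups do not overlap.

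The other 3 models called lower were shorter and less abundant. ONT.7377 (613 bases) was at 22.7, 22.6 and 22.0 CPM in Ctrl and 10.5, 10.7 and 12.9 in Rb2. The groups were well apart, with a log2 fold change of -0.98 (SE 0.16, adjusted p = 0.0240 by edgeR). It only just passed the length rule, and 93.4% ± 0.33 of its Ctrl counts lay in a transcript of 237 bases. ONT.2991 (814 bases, 1 transcript) was at 66.5, 61.3 and 52.2 in Ctrl and 35.2, 33.8 and 35.7 in Rb2, with a log2 fold change of -0.78 (SE 0.13, adjusted p = 0.0265). ONT.8956 (1023 bases) was at 26.2, 28.9 and 25.3 in Ctrl and 16.7, 16.5 and 12.0 in Rb2, with a log2 fold change of -0.83 (SE 0.17, adjusted p = 0.0431). The groups of both were apart, and Rb2 replicate 3 was the lowest sample of ONT.8956.

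The 7 models called higher in Rb2 had a median listed length of 1484 bases, against 918.5 for the 4 called lower. ONT.13084 (3616 bases) was at 71.8, 51.3 and 65.9 CPM in Ctrl and 101.3, 113.0 and 108.0 in Rb2, so the lowest Rb2 sample exceeded the highest Ctrl sample. Its mean went from 63.0 ± 10.5 to 107 ± 5.89 CPM (SD, n = 3), with a log2 fold change of 0.77 (SE 0.14, adjusted p = 0.0302 by edgeR). ONT.9171, the longest model at 5751 bases, was at 54.7, 51.9 and 59.4 in Ctrl and 94.0, 77.8 and 84.3 in Rb2. Its groups were apart, the log2 fold change was 0.62 (SE 0.12, adjusted p = 0.0356), and 99.2% ± 0.64 of its Ctrl counts lay in a transcript of 5703 bases. When each library was corrected for gene length the log2 fold change was 0.50 and the call was lost (adjusted p = 0.0593), while with Ctrl replicate 1 also left out it was 0.43 and the call was kept (adjusted p = 0.0172).

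ONT.2745 (1866 bases, 1 transcript) was at 16.1, 20.2 and 20.3 CPM in Ctrl and 36.5, 31.7 and 33.5 in Rb2. ONT.929 (1484 bases, 1 transcript) was at 13.6, 12.7 and 12.8 in Ctrl and 29.9, 25.5 and 25.2 in Rb2. In both the replicates lay close together and the groups were apart, with log2 fold changes of 0.85 (SE 0.15, adjusted p = 0.0327) and 1.04 (SE 0.15, adjusted p = 0.0192). ONT.929 was the called rise of largest size among the long models, at 2.06-fold.

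ONT.9429 (726 bases, 1 transcript) was at 11.3, 10.5 and 11.9 CPM in Ctrl and 24.0, 19.6 and 20.2 in Rb2. ONT.2068 (1115 bases, 1 transcript) was at 12.7, 9.22 and 15.7 in Ctrl and 22.1, 23.9 and 24.3 in Rb2. ONT.9533 (1469 bases) was at 7.28, 6.51 and 6.29 in Ctrl and 11.9, 11.4 and 16.7 in Rb2. All 3 had groups apart, with log2 fold changes of 0.92 (adjusted p = 0.0317), 0.90 (adjusted p = 0.0489) and 0.99 (adjusted p = 0.0475). The last 2 sat closest to the threshold, and each kept its call in 8 of 17 alternative settings, against 15 of 17 for ONT.1161.

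The remaining models among the longest were not called. ONT.15800 (3825 bases, 1 transcript) was at 2.55, 3.80 and 4.54 CPM in Ctrl and 7.12, 6.59 and 7.17 in Rb2. Its groups were apart, with a log2 fold change of 0.96 (SE 0.26) and an adjusted p of 0.0777 by edgeR, which was 0.0458 without Ctrl replicate 3. All Ctrl samples of ONT.15800 were below 5 CPM, so it passed the level rule only through its Rb2 samples. ONT.15721 (3839 bases, mean 93.3 deposited CPM) and ONT.2935 (3845 bases, mean 8.30) had overlapping groups and log2 fold changes of 0.10 and 0.14.

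Beyond the calls, the balance of directions was compared with that of other kinds of gene row. Of the 273 long models, 171 (62.6%) had a log2 fold change below 0 and 102 above, with a median of -0.15, against -0.02 over all genes tested. The 799 new models of at most 600 bases and at least 5 CPM had a median of -0.20, with 1 called higher and 18 lower. Known genes of at least 5 CPM had a median of 0.02, with 178 called higher and 39 lower of 6550 tested, and the 140 lncRNA models outside the annotation that were tested had -0.10, with 2 higher and 1 lower. Without Ctrl replicate 1 the median of the long models was 0.04, the opposite sign, while that of the short models stayed below 0 at -0.15.

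The difference between groups moved with gene length. Among the 99 long models of 600 to 1000 bases the median log2 fold change was -0.25, among the 76 up to 1500 bases -0.15, among the 50 up to 2000 bases -0.07 and among the 48 above 2000 bases 0.13. Known genes in the same length ranges had medians of -0.12, -0.02, 0.01 and 0.05, in the same order. Averaged over all counts of a library, the listed gene length was 1712 ± 30.6 bases in Ctrl and 1763 ± 2.89 in Rb2 (SD, n = 3), so the Rb2 libraries held more counts from long genes. After a correction for length in each library the medians of the long models were -0.11, -0.14, -0.12 and 0.05. Without Ctrl replicate 1 they were -0.12, -0.00, 0.13 and 0.21. The part of library length composition in the difference between the groups was not tested further.

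**Figure D2:**
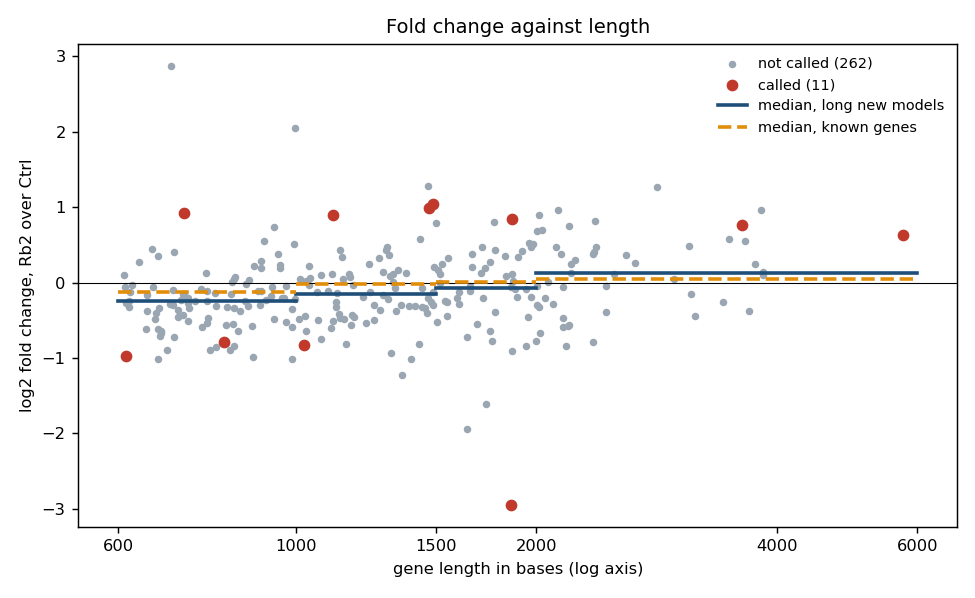
Log2 fold change of Rb2 over Ctrl against listed gene length (log axis), with 1 point per long model, the 11 called models in red, and horizontal lines at the median of long models and of known genes in 4 length ranges. The median of the long models runs from -0.25 below 1000 bases to 0.13 above 2000 bases.

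Single-transcript models were the rule. Of the 273 models, 169 (61.9%) had 1 transcript, 58 (21.2%) had 2, 36 (13.2%) had 3 to 5 and 10 (3.66%) had 6 or more. Among short new models 98.2% had 1 transcript, and among known genes of at least 5 CPM 18.9%. The 10 models with 6 or more transcripts were far more abundant, with a median of 408 deposited CPM against 10.0 in models with 1. Of the 104 models with more than 1 transcript, 57 had at least 90% of their counts in a single one.

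Calls were spread over these classes. The 169 models with 1 transcript held 4 of the calls higher and 1 lower. The 58 with 2 held 1 and 3, and the 36 with 3 to 5 held 2 and 0. None of the 10 models with 6 or more transcripts was called by edgeR or by DESeq2. Of these, 3 had an unadjusted p under 0.05, against 20.0% of all genes. With 2.7% of all genes called, the lack of a call in 10 models says little. The counts of the transcripts summed to the gene count in every library for all 273 models.

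At transcript level, 337 of the 502 transcripts were tested, and edgeR called none of them, as it called none of 16679 transcripts in all. An unadjusted p under 0.05 was found in 71 (21.1%), against a background of 13.8%. DESeq2, as an alternative, called 8 higher and 6 lower, against a background of 2.09% of transcripts. On simulated data the edgeR transcript fit recovered 8% of 2-fold and 57% of 4-fold changes. Its lack of calls therefore does not show that transcripts were unchanged.

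The share that each transcript took in its model could be tested in 43 models with diffSpliceDGE of edgeR, and none was called, against 0.417% of 3361 genes. On simulated data this test recovered 2% of 2-fold and 21% of 4-fold changes. Its lack of calls therefore does not show that shares were unchanged. Of the 43 models, 2 had an unadjusted p under 0.05, against 3.36% of genes. ONT.14648 (719 bases) had the smallest, 0.00165 (adjusted p = 0.264). The share of its transcript of 218 bases was 1.52%, 2.21% and 2.02% in Ctrl and 0.50%, 0.22% and 0.69% in Rb2, so the groups were apart at a level of few counts. In ONT.16278 a transcript of 646 bases went from 1.99% ± 0.71 to 3.54% ± 1.00 of the counts, with an unadjusted diffSpliceDGE p of 0.0319.

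ONT.12926 and ONT.8956 followed. In ONT.12926 (2369 bases) the transcript of 2158 bases held 20.6% ± 14.4 in Ctrl and 46.6% ± 17.1 in Rb2, and the groups overlapped. In ONT.8956, one of the models called lower, the transcript of 589 bases held 9.72%, 10.0% and 7.59% in Ctrl and 20.2%, 17.9% and 18.5% in Rb2. Those groups were apart, with an unadjusted diffSpliceDGE p of 0.120 and an adjusted p of 1.00. The level of that transcript had a log2 fold change of 0.20 (SE 0.30), and that of the transcript of 509 bases, which held the rest, -1.002 (SE 0.18, adjusted p = 0.147 by edgeR), and the latter held most of the model's counts.

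The counts of ONT.13084 were assigned to different transcripts in different libraries. The transcript of 3574 bases held 62.7%, 100% and 97.9% of the counts in the Ctrl samples and 0%, 100% and 0% in the Rb2 samples, in replicate order. A transcript of 3573 bases, 1 base shorter, held 98.9% in Rb2 replicate 1, 92.0% in Rb2 replicate 3 and 0% in all others. A further form, of 3570 bases, held 37.3% in Ctrl replicate 1, and another, of 3568 bases, 8.01% in Rb2 replicate 3. The assigned form differed within the Rb2 group, where replicate 2 had its counts on the form that led in Ctrl. The gene counts of the 3 Rb2 samples stayed within 101.3 to 113.0 CPM. Whether reads can be told apart between forms that differ by 1 base was not tested.

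**Figure D3:**
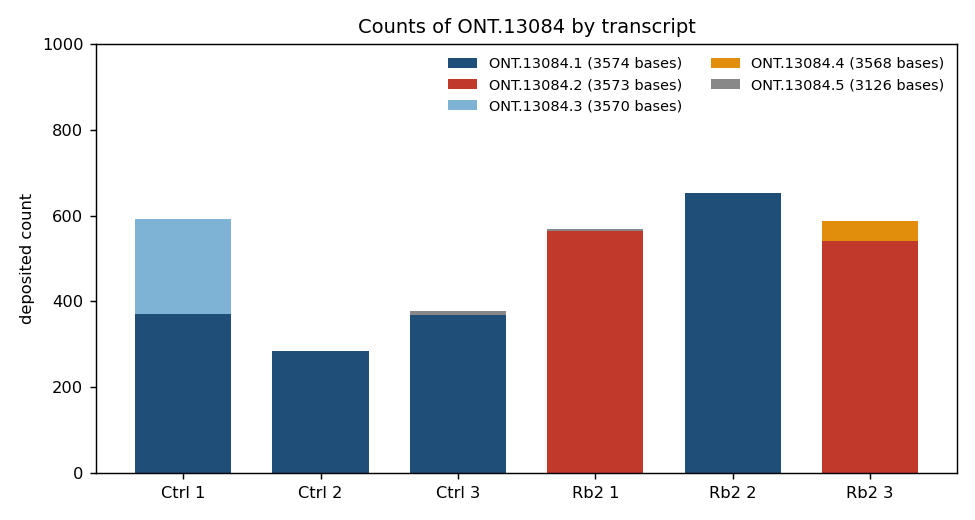
Deposited counts of ONT.13084 in the 3 Ctrl and 3 Rb2 samples as stacked bars, coloured by transcript with its length in bases. The 3574-base form makes up the whole bar in Ctrl replicate 2 (284 counts) and Rb2 replicate 2 (652 counts) and has no count in Rb2 replicates 1 and 3, where the 3573-base form has 563 and 540.

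A difference in assigned counts of that kind, with at least 90% in 1 library and at most 10% in another for the same transcript, was found in 1 of 93 long models with more than 1 transcript and at least 20 counts in every library (1.08%). It was found in 98 of 5199 known genes (1.88%).

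Ctrl replicate 1 was the highest library in 125 of the 273 long models (45.8%), against 26.2% of known genes of at least 5 CPM. Among the short new models Ctrl replicate 2 was highest most often, in 46.7%. In 20 long models (7.33%) Ctrl replicate 1 exceeded 2 times the value of every other library. Over all genes tested this share was 2.15%, and over genes of at least 5 CPM it was 2.07%. The level rule can admit a model through 1 high library, so the 7.33% is description only. The largest such excess was in ONT.18954 (1640 bases), at 25.0, 3.07 and 4.02 CPM in Ctrl and 3.38, 2.08 and 3.13 in Rb2. ONT.2552 (1360 bases) followed, at 14.3, 3.43 and 4.19 in Ctrl and 2.85, 2.95 and 3.86 in Rb2. In both, the other 5 libraries lay close together and under 5 CPM. Both thus passed the level rule only through Ctrl replicate 1.

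All 20 of these models had a log2 fold change below 0, with a median of -0.75. None was called by edgeR or DESeq2 and none had an unadjusted p under 0.05, against 20.0% of all genes. The sign and the lack of small p-values are tied to how these models were picked. A high Ctrl library itself lowers the log2 fold change and widens the Ctrl spread. Without Ctrl replicate 1, 8 of the 20 were below 0 and the median was 0.05. Ctrl replicate 1 was also the deepest library, and its part in these values beyond its removal was not tested.

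**Figure D4:**
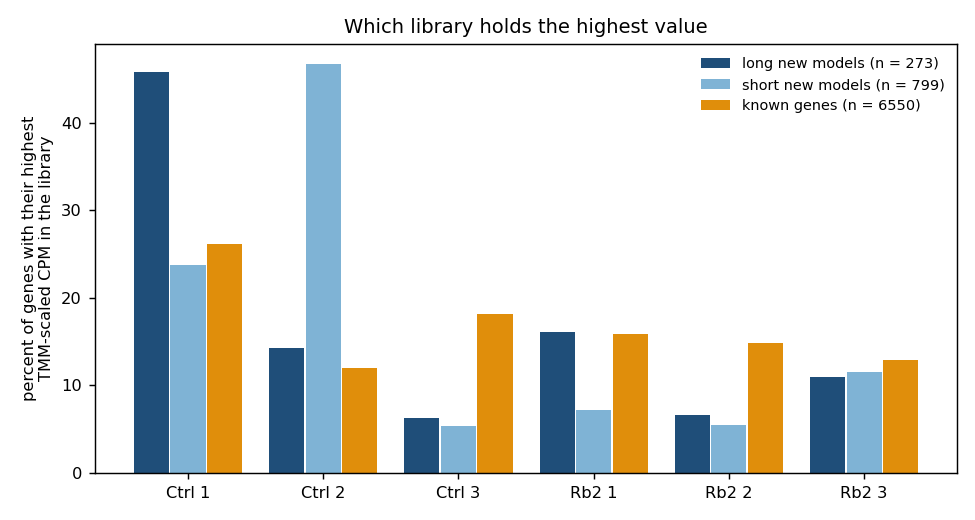
Percent of models or genes (at least 5 CPM) in which each of the 6 libraries had the highest TMM-scaled CPM, for long new models, short new models and known genes. Ctrl replicate 1 is highest in 45.8% of long new models, and Ctrl replicate 2 in 46.7% of short new models.

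With all samples in, replicates differed more in Ctrl. The median SD of log2 CPM over the long models was 0.26 in Ctrl and 0.15 in Rb2, and it was larger in Ctrl in 195 of 273. Known genes of at least 5 CPM had medians of 0.23 and 0.12. Without Ctrl replicate 1 the Ctrl medians were 0.16 for the long models and 0.11 for known genes. The Ctrl SD was then the larger in 133 of the 273. These Ctrl values rest on fewer samples than the Rb2 values, and an SD over fewer samples tends to be smaller. The part of Ctrl replicate 1 in the wider Ctrl spread was not tested.

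The files used here give no coordinates for the models, but the transcript table numbers known genes and new models in 1 series. For known genes that number follows genome order. Of 4462 known-gene numbers whose flanking numbers lay in order on 1 chromosome and strand of the rat assembly GRCr8, 99.1% were on that chromosome and strand and 95.3% lay between the flanks. By that measure 234 of the 273 long models had known genes on either side. In 24 of them the lookup found no RefSeq gene between the flanking genes, and in 203 it found at least 1 protein-coding gene. Whether the lookup missed genes, such as those on the other strand, was not tested, so the 24 intervals may still hold genes. The place of a model within such an interval is not known.

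ONT.2991, called lower, lay in the series between Psmd3, a subunit of the proteasome, and Thra, a thyroid hormone receptor. The log2 fold change was -0.38 for Psmd3 (adjusted p = 0.105 by edgeR) and -0.50 for Thra (adjusted p = 0.472). ONT.1161 lay between Vta1, which acts in endosomal sorting, and Ccdc28a, with at least 9 RefSeq genes between them, at least 3 of them protein-coding. Vta1 was at 38.7 ± 10.0 CPM in Ctrl and 49.1 ± 2.65 in Rb2 (log2 fold change 0.35, adjusted p = 0.326 by edgeR), and Ccdc28a at 6.28 ± 0.87 and 6.60 ± 0.56 (0.08, adjusted p = 0.870). Neither flanking gene was called, beside the log2 fold change of -2.95 of the model.

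ONT.13084 lay between Nt5c3a, a nucleotidase, and Lancl2, with at least 1 RefSeq gene between them. Nt5c3a was at 17.1 ± 3.96 CPM in Ctrl and 29.5 ± 2.07 in Rb2 (log2 fold change 0.79, adjusted p = 0.0618 by edgeR), beside 0.77 for the model. Lancl2 was at 5.15 ± 0.23 and 5.82 ± 0.90 (0.18, adjusted p = 0.699). ONT.9171 lay between Mphosph6 (0.48, adjusted p = 0.170) and Mbtps1 (-0.08, adjusted p = 0.778), the site-1 protease. Over all flanking genes, 14 of 405 tested were called (3.46%), against the 2.7% of all genes. Of the 16 that flank the 8 called models with such flanks, edgeR called 0, 5 had an unadjusted p under 0.05, and DESeq2 called 1. Over all genes 20.0% had an unadjusted p under 0.05. Within 3 numbers of a called model lay 37 other models, some of them typed as lncRNA genes. Of these 10 were tested, with 0 called by edgeR or DESeq2 and 2 at an unadjusted p under 0.05.

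A known gene shared its number with 6 of the long models. ONT.16721 shared it with Ddx17, an RNA helicase, and had a difference of -0.52 on the log2 scale (adjusted p = 0.296 by edgeR) beside 0.04 for Ddx17 (adjusted p = 0.904). Further models shared a number with Kazald1, Vgll4, Inppl1 and AABR07043564.1 and had log2 fold changes from -0.79 to -0.34. None of the 6 was called by edgeR or DESeq2, and 1 had an unadjusted p under 0.05, against 20.0% of all genes. Counts can be split between a model and a known gene of the same number, so these values are uncertain.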

How the data were processed

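The authors deposited whole-number counts per gene and per transcript with lengths in bases, and tables of CPM, which equal the deposited count over the column total (largest difference 4.9e-11). The submitters' processing notes name mm10, a mouse build, with HISAT2 and DESeq2 and give none a role, although known genes carry rat identifiers. The models have identifiers starting with ONT, but the library kit in the labels is one for short reads. The read type, assembler, counter and strand setting are therefore unsettled, which limits what transcript shares and lengths mean. Each table holds 18 further per-sample columns that were not used.

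All gene rows, and separately all transcript rows, were fitted under R 4.3.3 by the robust quasi-likelihood method of edgeR 4.0.16, after filterByExpr and TMM scaling and with group as the only term. Benjamini-Hochberg adjustment ran over all rows tested, with calls made under 0.05. Transcript usage was tested with diffSpliceDGE (Simes p). The SE of a log2 fold change (Rb2 over Ctrl) is its size over the square root of F. A count of 3, which a count of 0 allows, was 0.341 to 0.578 CPM, for counting error only. The closest samples, Rb2 replicates 2 and 3, differed by more than sampling noise (chi-square per degree of freedom 1.71). Same-numbered Ctrl and Rb2 samples did not deviate together. On simulated data with 100 changes of each size, the gene fit recovered 38% of 2-fold and 90% of 4-fold changes. The transcript fit recovered 8% and 57%, and the usage test 2% and 21%. Calls on unchanged genes or transcripts numbered 7, 12 and 13 in these fits, which for the usage test was many beside the changes recovered. Simulated libraries of a group shared their expected levels, so no library deviated as Ctrl replicate 1 did. For the usage test only the second most abundant transcript of a gene was raised.

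The members and lists were chosen with earlier results of these data known. Named models are those called, the 8 most abundant, the 4 longest, the 4 with the smallest usage p and those next to a threshold. Models named for an excess in Ctrl replicate 1, a change of assigned transcript, a wide spread or a flanking or shared number were chosen after their values were seen. Neighbours come from RefSeq, assembly GRCr8, by gene symbol. Alternatives were other scalings and filters, DESeq2 1.42.0, limma-voom (limma 3.58.1), the replicate number as a block, a correction for gene length in each library (loess, span 0.5), and each sample left out. One model that shares a number with a known gene is not reported by value here.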

Additional observations from a re-analysis of the deposited data

How the results depend on the processing

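Of the 11 called models none changed direction under the 17 alternative fits. The 7 calls higher and 4 lower became 18 higher under library size alone (which moved the median of all genes from -0.02 to 0.10), 13 and 7 with no filter on low counts, 13 higher by DESeq2, and 22 and 9 with the length correction and Ctrl replicate 1 left out together. Only 2 of the 4 lower calls were in models above 1000 bases, and 2 in models with a transcript above 600 bases. Leaving out 1 sample at a time gave 0 to 22 higher and 0 to 11 lower. Over all genes, 219 higher and 93 lower became 135 higher with upper-quartile factors, 463 higher under library size alone, 386 and 150 with no filter, 561 and 339 with the length correction without Ctrl replicate 1, and 0 to 605 and 3 to 291 with 1 sample left out. For member transcripts DESeq2 called 8 higher and 6 lower, and edgeR with 1 sample left out called 0 to 1 lower. Usage calls were 0 to 1 with 1 sample left out, the 1 coming without Rb2 replicate 2.

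With the replicate block, 0 models were higher and 1 lower, and over all genes 12 and 21. Same-numbered samples had correlations of -0.067, -0.061 and -0.0067, so the numbers are not taken to pair the samples.

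Among the named models with a value under each alternative, signs turned in 6, none of them called. Under library size alone ONT.9388 was at 0.063, ONT.3156 at 0.054, ONT.2619 at 0.053 and ONT.3643 at 0.057. With the length correction ONT.17410 was at 0.0012, ONT.3156 at 0.033, ONT.15721 at -0.010 and ONT.3643 at 0.15, and with Ctrl replicate 1 also out ONT.3156 was at 0.0074, ONT.15721 at -0.046 and ONT.3643 at 0.18. With 1 sample left out at a time ONT.9388 ran from -0.11 to 0.00043, ONT.3156 from -0.12 to 0.021, ONT.2619 from -0.20 to 0.049 and ONT.3643 from -0.11 to 0.041. The cause of these shifts was not tested. The length correction without Ctrl replicate 1, scaling from known genes alone, the limit on the longest transcript and the Ctrl spread without Ctrl replicate 1 were added after seeing the data.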

Other observations

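In some long models the Rb2 samples disagreed with each other. ONT.147 (699 bases) was at 3.03, 1.08 and 2.27 CPM in Ctrl and 1.25, 13.9 and 33.9 in Rb2, and its log2 fold change of 2.87 (adjusted p = 0.240 by edgeR) was the highest value among the 273 models. Its Rb2 replicate 1 lay within the Ctrl range. ONT.12342 (749 bases) was at 27.1, 3.07 and 11.7 in Ctrl and 1.42, 18.5 and 16.2 in Rb2, so both groups held low and high samples. ONT.8662 (997 bases) was at 1.46, 1.45 and 5.24 in Ctrl and 2.67, 15.4 and 14.9 in Rb2 (log2 fold change 2.05, adjusted p = 0.209 by edgeR), and its Rb2 replicate 1 again lay among the Ctrl samples. The Ctrl means of ONT.147 and ONT.8662, 2.13 and 2.71 CPM, were below the 5 CPM of the level rule. Both entered the set through Rb2 replicates 2 and 3, so their rises are tied to that rule.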
